A study of Mus musculus with 12 samples.

Results

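The beta-tubulin isotypes Tubb2a, Tubb2b, Tubb3, Tubb5 and Tubb6 were followed in sorted mouse thymocytes. All probe sets that the platform annotation assigns to 1 of these symbols alone were taken, which gave 8 of 45099 probe sets and 5 of 18194 genes. A probe set shared by Tubb2b and a Tubb2a pseudogene was left out. For testing, a probe set had to reach the median of its array on 2 or more arrays, and 6 of the 8 probe sets did so, for 4 of the 5 genes. Both Tubb6 probe sets did not pass. The genes were proposed with the differences between IkL/L and WT cells in view, Tubb2b having been seen to be low in IkL/L DN3 and DN4 cells. Those differences are therefore described without a test. The steps from 1 stage to the next were tested, though they share arrays with those differences.

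Microtubules are hollow polymers of alpha- and beta-tubulin dimers that form the mitotic spindle, carry vesicles and position the centrosome of a T cell towards the cell it contacts. Mammals encode several beta-tubulins, which differ mainly in the acidic C-terminal tail that motors, microtubule-associated proteins and modifying enzymes read. Tubb5 is the isotype of most dividing cells. Tubb2a and Tubb2b encode nearly identical proteins and are best known from brain, where mutations of Tubb2b disturb neuronal migration, and Tubb3 is the isotype used as a marker of neurons. Tubb6 is a divergent isotype found at low level in many tissues.

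RNA came from DN3, DN4 and DP thymocytes of IkL/L mice and from the same stages of wild-type (WT) mice. DN3 and DN4 cells are successive precursors without the CD4 and CD8 co-receptors, and DP cells carry both. IkL/L is known in the field as a hypomorphic allele of Ikzf1, the gene of the zinc-finger transcription factor Ikaros, and it is carried in all cells of the mouse. The labels give no age. Each group held 2 arrays, for 12 in all. Cells of 3 mice were combined before sorting, and whether each array had its own pool is not given in the labels. P values measure the spread between these arrays, which in the WT groups may be technical only.

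The signals are log2 values. Array medians lay between 5.14 and 5.22, 75th percentiles between 7.34 and 7.57, and precision is limited by 2 arrays a group. Ikzf1 signal (1436312_at) in IkL/L cells was 63.7%, 64.5% and 61.7% of that in WT cells at DN3, DN4 and DP, and that of a second probe set, 1421303_at, was 81.8%, 48.9% and 85.3%. Averaged over the list, markers of the DN3 stage were highest in DN3 cells, and the 3 co-receptor genes were highest in DP cells, in both genotypes. Dtx1, one of the DN3 markers, gave 9.04 and 10.21 in IkL/L DP cells, against 9.06 and 9.34 in IkL/L DN3 cells. The IkL/L replicate 2 arrays stood apart in the Y-linked gene Eif2s3y, at 2.82 to 3.12 on those 3 arrays against 7.78 to 9.58 on the other 9, so the arrays of each IkL/L group did not share 1 pool. Averaged over their lists, markers of T cells lay between 11.30 and 12.34, of B cells between 5.10 and 5.63, of thymic stroma between 4.78 and 5.12 and of erythroid cells between 4.59 and 6.19. Myeloid markers averaged 6.55 on IkL/L DN3 replicate 1 and 4.62 to 5.42 on every other array. The labels name several labelling series but not which arrays belong to each, so their part was not tested.

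The promoter windows of Tubb2a, Tubb3 and Tubb5, the members matched in the RefSeq table, are shown beside their stage courses, and those of Tubb2b and Tubb6 were not used here. The main probe set of Tubb2a rose from stage to stage, whereas Tubb3 and the main probe set of Tubb5 were lowest in DP cells. A second Tubb2a probe set did not follow that course. The windows are RefSeq sequences on GRCm38.p6, from 250 bases before to 50 bases after the annotated start, and were read 5′ to 3′ on the strand of the gene. They are chr13:34077959-34078258 on the minus strand for Tubb2a, chr8:123411303-123411602 on the plus strand for Tubb3, and chr17:35838252-35838551 on the minus strand for Tubb5. Capitals mark 4 motifs searched on both strands, namely GGGAA (the core letters bound by Ikaros zinc fingers), TGACGTCA (the full cAMP response element, its own reverse complement), TATAA and CCAAT.
Tubb2a: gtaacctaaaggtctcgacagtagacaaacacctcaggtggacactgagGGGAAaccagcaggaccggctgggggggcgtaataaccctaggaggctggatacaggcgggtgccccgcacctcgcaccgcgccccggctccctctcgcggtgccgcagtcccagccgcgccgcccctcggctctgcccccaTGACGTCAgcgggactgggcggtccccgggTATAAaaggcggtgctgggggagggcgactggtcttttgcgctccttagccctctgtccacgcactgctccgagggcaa
Tubb3: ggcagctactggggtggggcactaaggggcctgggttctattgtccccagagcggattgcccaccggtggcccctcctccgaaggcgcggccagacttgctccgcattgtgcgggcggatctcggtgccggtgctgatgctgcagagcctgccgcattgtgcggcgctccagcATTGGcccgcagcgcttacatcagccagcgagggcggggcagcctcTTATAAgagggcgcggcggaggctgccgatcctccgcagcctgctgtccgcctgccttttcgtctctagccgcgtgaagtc
Tubb5: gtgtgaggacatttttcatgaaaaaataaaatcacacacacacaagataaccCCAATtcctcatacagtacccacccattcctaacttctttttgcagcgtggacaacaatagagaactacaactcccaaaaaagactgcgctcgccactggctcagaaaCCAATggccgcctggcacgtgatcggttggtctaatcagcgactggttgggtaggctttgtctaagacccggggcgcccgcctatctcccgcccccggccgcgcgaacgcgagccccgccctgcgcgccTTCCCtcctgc

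In the Tubb2a window the TGACGTCA letters began 59 bases before the start and TATAA 29 bases before it. The full cAMP response element was in 1.79% of 32851 windows of 300 bases in the same table. Tubb3 held TATAA on both strands, in overlapping letters that began 31 and 30 bases before the start, and CCAAT on the minus strand. TATAA was in 24.9% of all windows. Tubb5 held CCAAT at 2 places and no TATAA letters, and CCAAT was in 37.4% of all windows. GGGAA was in the Tubb2a window and, on the minus strand, in the Tubb5 window, and in 62.7% of all windows. These are matches of letters, not measured sites.

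**Figure D1:**
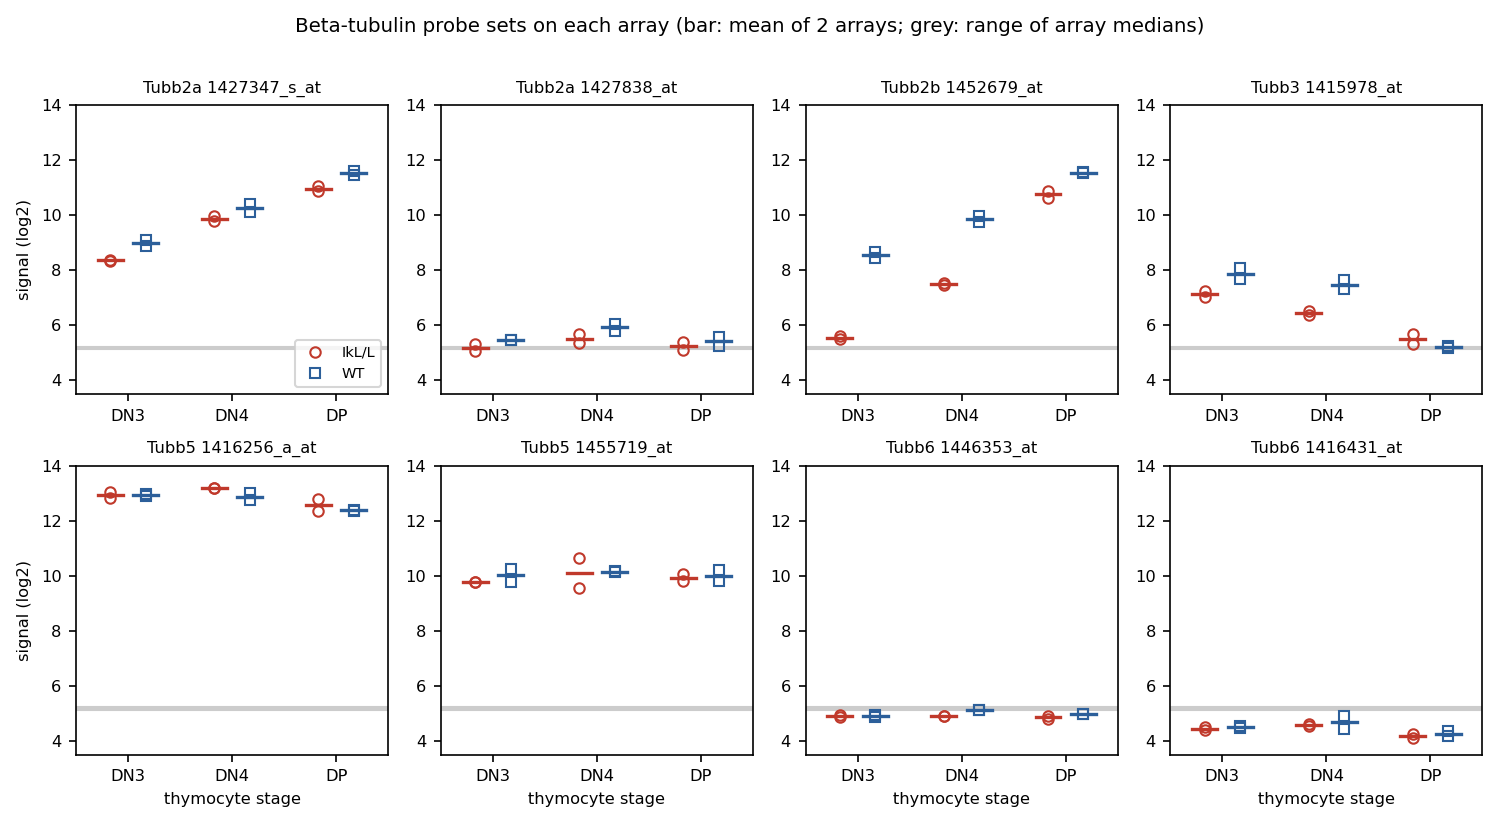
Log2 signal of the 8 beta-tubulin probe sets on each of the 12 arrays, by stage, with IkL/L as red circles left of WT as blue squares, bars at the mean of 2 arrays and a grey band from 5.14 to 5.22 for the array medians. Tubb2b rises through the stages and is lower in IkL/L cells at each of them, Tubb3 falls towards the band in DP cells, and both Tubb6 probe sets stay below it.

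Tubb2b had the widest range of the members and the widest gap between genotypes. Its probe set 1452679_at gave 5.60 and 5.51 in IkL/L DN3 cells, against 8.45 and 8.67 in WT DN3 cells. In DN4 cells it gave 7.46 and 7.53 in IkL/L, against 9.75 and 9.99 in WT. In DP cells it gave 10.63 and 10.90 in IkL/L, against 11.54 and 11.58 in WT. Both IkL/L arrays lay below both WT arrays at every stage, and no adjacent groups overlapped in the order WT DP, IkL/L DP, WT DN4, WT DN3, IkL/L DN4, IkL/L DN3. Tubb2b signal in IkL/L DN4 cells thus lay below that in WT cells of the preceding DN3 stage.

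The Tubb2b difference (IkL/L minus WT, log2) was -3.01, -2.37 and -0.80 at DN3, DN4 and DP, each with an SE of 0.14. As a share of the WT signal, IkL/L cells had 12.4%, 19.3% and 57.6% at the 3 stages. IkL/L DN3 signal lay just above the array medians (5.14 to 5.22). With only replicate 1 of the IkL/L arrays, the differences were -2.96, -2.41 and -0.93. In sorted populations measured in bulk, fewer cells with a transcript and less of it per cell cannot be told apart.

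Markers of other populations also differed between the genotypes. The 4 measured DP markers averaged 8.33 and 8.28 on the IkL/L DN4 arrays, against 8.58 and 8.81 on the WT DN4 arrays. The 4 did not run one way. Cd8b1, a chain of the CD8 co-receptor, gave 7.86 and 7.78 in IkL/L DN4 cells, against 9.40 and 9.55 in WT DN4 cells, and Cd8a gave 6.90 and 6.68, against 7.05 and 7.88. Rag1, which cuts DNA in receptor gene rearrangement, gave 12.04 and 12.15 in IkL/L, against 11.52 and 11.63 in WT DN4 cells, and Cd4 gave 6.50 and 6.51, against 6.35 and 6.20. The 4 measured markers of gamma-delta T and NK cells averaged 6.91 and 6.55 in IkL/L DN3 cells, against 7.67 and 7.56 in WT DN3 cells, and 5.74 and 5.76 in IkL/L DN4 cells, against 6.70 and 7.08 in WT DN4 cells. These 4 did not run one way at DN3 either. Nkg7 gave 8.81 and 8.14 in IkL/L DN3 cells, against 10.38 and 10.05 in WT DN3 cells, and Id2 gave 6.87 and 6.52, against 8.52 and 8.35. Sox13 overlapped at DN3, at 7.96 and 7.53 in IkL/L, against 7.63 and 7.91 in WT cells. In DN4 cells Nkg7, Id2 and Sox13 were each lower on both IkL/L arrays. Ncr1, which defines NK cells, stayed between 3.85 and 4.28 on all arrays, below the array medians. The part of these populations in the beta-tubulin signals was not tested. The myeloid markers were high on 1 IkL/L DN3 array, where Tubb2b (5.60) was close to the other IkL/L DN3 array (5.51).

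Tubb2b rose at both steps in both genotypes. In IkL/L cells it rose by 1.94 ± 0.14 (SE) from DN3 to DN4 (limma, adjusted p = 8.80e-05) and by 3.27 ± 0.14 from DN4 to DP (adjusted p = 7.81e-07), or 3.84-fold and 9.61-fold. In WT cells it rose by 1.31 ± 0.14 (limma, adjusted p = 0.000571) and 1.69 ± 0.14 (adjusted p = 7.18e-06), or 2.47-fold and 3.22-fold. All later arrays lay above all earlier ones in each of the 4 steps. Both IkL/L steps start from low values known when the gene was chosen, so their sizes and p values depend on that choice. The step in IkL/L cells exceeded that in WT cells by 0.63 ± 0.20 for DN3 to DN4 and by 1.58 ± 0.20 for DN4 to DP, which is the narrowing of the genotype gap in another form and carries no test.

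Tubb2a, its neighbour on chromosome 13 with 1 long noncoding RNA gene (4930447K03Rik) between them, followed the same direction with a smaller gap. The bright probe set 1427347_s_at gave 8.36 and 8.36 in IkL/L DN3 cells, against 8.90 and 9.10 in WT DN3 cells. It gave 9.79 and 9.97 in IkL/L DN4 cells, against 10.13 and 10.40 in WT DN4 cells. In DP cells the values were 10.87 and 11.06 in IkL/L, against 11.46 and 11.61 in WT. Both IkL/L arrays were below both WT arrays at each stage, and all 6 groups were separate, with each IkL/L group directly below the WT group of its stage. Probe sets with the suffix _s_at can bind transcripts of related genes, so part of this signal may come from Tubb2b; that part was not tested.

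The Tubb2a difference (IkL/L minus WT, log2) was -0.64, -0.38 and -0.57 at DN3, DN4 and DP, with an SE of 0.15. In IkL/L cells Tubb2a rose by 1.52 ± 0.15 from DN3 to DN4 (limma, adjusted p = 0.000457) and by 1.08 ± 0.15 from DN4 to DP (adjusted p = 0.000218). In WT cells both steps were 1.27 ± 0.15 (limma, adjusted p = 0.000743 and 4.91e-05). The signals of Tubb2a and Tubb2b had a Pearson r of 0.92 over the 12 arrays, a description of values that share stages and arrays.

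The second Tubb2a probe set, 1427838_at, ran between 5.08 and 6.06, close to the array medians, and its r with the bright one was 0.17. Its WT step from DN4 to DP was -0.50 ± 0.18 (limma, adjusted p = 0.0398), opposite in sign to that of the bright set. Leaving out either WT DN3 array (adjusted p = 0.0576 for each), WT DN4 replicate 2 (0.222) or WT DP replicate 1 (0.220) ended that call. Its other 3 steps did not pass the test, with 0.46 in WT and 0.32 in IkL/L cells from DN3 to DN4, and -0.26 in IkL/L cells from DN4 to DP. Its genotype differences were -0.28, -0.41 and -0.18 (IkL/L minus WT at DN3, DN4 and DP), the same sign as in the bright set. In DP cells the arrays of the genotypes overlapped.

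Tubb3, the neuronal isotype, ran the other way through development. Its only probe set, 1415978_at, gave 7.23 and 7.03 in IkL/L DN3 cells, against 7.68 and 8.09 in WT DN3 cells. It gave 6.52 and 6.37 in IkL/L DN4 cells, against 7.32 and 7.64 in WT DN4 cells. In DP cells it gave 5.69 and 5.34 in IkL/L, against 5.24 and 5.19 in WT. IkL/L cells were lower on both arrays at DN3 and DN4 and higher on both arrays at DP. No neighbours overlapped in the order WT DN3, WT DN4, IkL/L DN3, IkL/L DN4, IkL/L DP, WT DP.

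The Tubb3 difference (IkL/L minus WT, log2) was -0.76, -1.04 and 0.30 at DN3, DN4 and DP, with an SE of 0.18. The DP levels lay at or just above the array medians, and the 95% interval of the DP difference, -0.11 to 0.70, includes 0. In IkL/L cells Tubb3 fell by 0.93 ± 0.18 from DN4 to DP (limma, adjusted p = 0.00218), and in WT cells it fell by 2.27 ± 0.18 (adjusted p = 4.99e-06). From DN3 to DN4 the differences were -0.68 ± 0.18 in IkL/L cells (limma, adjusted p = 0.0879) and -0.40 ± 0.18 in WT cells (adjusted p = 0.247), which did not pass. The IkL/L step passed in 3 of the alternatives, among them a replicate block within each genotype (adjusted p = 0.0371). The 95% intervals of these were -1.09 to -0.28 and -0.81 to 0.00 before adjustment.

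The 5 neuronal markers averaged between 4.22 and 4.50 in all samples, with Rbfox3 alone above the array medians, at 6.57 to 7.05, and Snap25, Syt1, Nefl and Elavl4 below them on all 12 arrays. The 5 DN3 markers averaged 8.43 and 8.83 on the IkL/L DP arrays, against 7.29 and 7.51 on the WT DP arrays. The 5 did not run one way. Notch1, Ptcra, Dtx1 and Hes1 were higher on both IkL/L DP arrays. Notch1 gave 12.84 and 12.77, against 11.29 and 11.31 in WT DP cells. Il2ra overlapped, at 4.56 and 5.07 in IkL/L, against 4.80 and 5.12 in WT DP cells, below the array medians. The part of these markers in the Tubb3 difference at DP was not tested.

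Tubb5, the isotype of dividing cells, was bright in all groups and had the narrowest range of the 4 brightest tested probe sets. Probe set 1416256_a_at gave 13.05 and 12.84 in IkL/L DN3 cells, against 12.91 and 12.97 in WT DN3 cells. It gave 13.20 and 13.19 in IkL/L DN4 cells, against 12.74 and 13.00 in WT DN4 cells. In DP cells it gave 12.78 and 12.35 in IkL/L, against 12.41 and 12.36 in WT. The genotypes overlapped at DN3 and DP, and both IkL/L arrays were the higher at DN4. The differences (IkL/L minus WT, log2) were 0.00, 0.33 and 0.18 with an SE of 0.16, and the value at DN4 became 0.07 after a second quantile normalization.

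Tubb5 fell from DN4 to DP by 0.63 ± 0.16 in IkL/L cells (limma, adjusted p = 0.00989) and by 0.48 ± 0.16 in WT cells (adjusted p = 0.0270). The IkL/L call was lost without IkL/L DN4 replicate 1 (adjusted p = 0.0515), without IkL/L DP replicate 2 (0.0953) or without the 3 IkL/L replicate 2 arrays (0.158). The WT call was lost without WT DN4 replicate 2 (adjusted p = 0.175), WT DP replicate 1 (0.0683) or WT DP replicate 2 (0.0880). From DN3 to DN4 the differences were 0.25 in IkL/L and -0.07 in WT cells and did not pass, with 95% intervals of -0.11 to 0.61 and -0.43 to 0.29.

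A second Tubb5 probe set, 1455719_at, ran between 9.55 and 10.64 and passed the test in no step (limma, adjusted p from 0.677 to 0.847). From DN4 to DP it differed by -0.16 in IkL/L cells and -0.15 in WT cells. Without IkL/L DN4 replicate 2 the IkL/L step was -0.71 (adjusted p = 0.0472). Its r with the first set was 0.04 over 12 arrays, so the fall of Tubb5 rests on 1 of 2 probe sets. All 11 measured genes of a list of dividing-cell genes, among them Aurkb and Plk1, mitotic kinases, and Birc5, a chromosomal passenger protein, also fell from DN4 to DP in both genotypes, a step at which 24.8% of all tested genes fell in IkL/L and 31.9% in WT cells. Their median step was -1.27 in IkL/L and -1.46 in WT cells. The part of cell division in the Tubb5 signal was not tested.

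Tubb6 was near the floor. Probe set 1446353_at ran between 4.81 and 5.13 and 1416431_at between 4.10 and 4.92, below the median of the array on all 12 arrays, so no level or step is given for it.

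**Figure D2:**
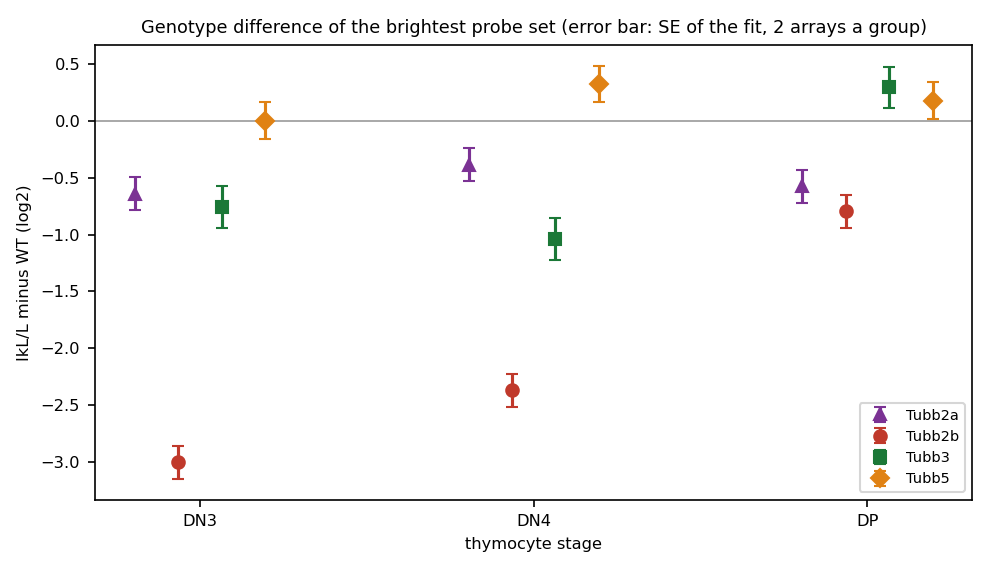
Genotype difference of the brightest probe set of each tested member at DN3, DN4 and DP (IkL/L minus WT, log2), with the SE of the fit as error bars and 2 arrays a group. Tubb2b runs through -3.01, -2.37 and -0.80, Tubb3 changes sign at DP, where its 95% interval includes 0, and Tubb5 stays near 0.

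Counted over the 4 tested genes, both IkL/L arrays lay below both WT arrays for Tubb2a, Tubb2b and Tubb3 in DN3 cells, for the same 3 in DN4 cells, and for Tubb2a and Tubb2b in DP cells. Of all 11649 tested genes, 26.7%, 28.6% and 18.0% did so at the 3 stages. The members were chosen on these differences, so nothing is read from their count. With only replicate 1 of the IkL/L arrays, the differences at DN3, DN4 and DP were -0.64, -0.47 and -0.67 for Tubb2a, -0.65, -0.96 and 0.47 for Tubb3, and 0.11, 0.33 and 0.39 for Tubb5.

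For the stage steps, 2 of the 4 genes, Tubb2a and Tubb2b, rose from DN3 to DN4 in each genotype, and the other 2 did not pass the test. Among all tested genes 0.730% in IkL/L and 0.979% in WT cells rose at that step, while 2.43% in IkL/L and 6.06% in WT cells fell. After a second quantile normalization 228 genes rose and 540 fell at the WT step, against 114 and 706 as deposited. From DN4 to DP all 4 genes passed in each genotype, with Tubb2a and Tubb2b higher and Tubb3 and Tubb5 lower. That is a step at which many genes moved: 18.5% rose and 24.8% fell in IkL/L cells, and 23.2% rose and 31.9% fell in WT cells. The IkL/L steps of Tubb2b start from low values known when it was chosen, so nothing is read from the IkL/L counts. Part of the Tubb2a signal may come from Tubb2b, so their calls may not be independent.

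**Figure D3:**
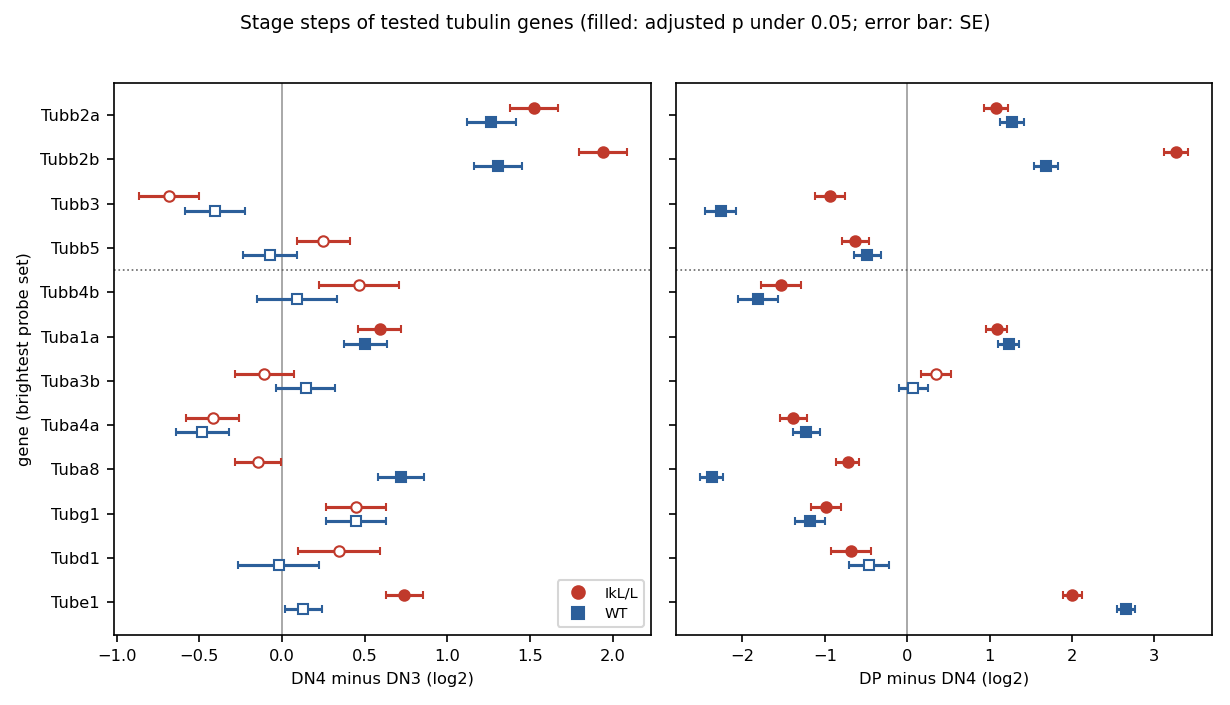
Stage steps of the 4 tested beta-tubulin members (above the dotted line) and the 8 other tested tubulins, as DN4 minus DN3 (left) and DP minus DN4 (right) on the log2 scale, with IkL/L as red circles above WT as blue squares, SE as error bars and filled symbols for adjusted p under 0.05. Tubb2a and Tubb2b are to the right of 0 in both panels, and Tubb3, Tubb5 and Tubb4b are to the left of it from DN4 to DP.

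The genes whose signal followed a member most closely over the 12 arrays were looked up among 4264 genes with a range of group means of at least 1. For Tubb2b they were Trib2 (r = 0.993), a pseudokinase of the Tribbles family, Cotl1 (0.986), which binds actin filaments, and Psd4 (0.958), an exchange factor for ARF6. Trib2 averaged 4.79 in IkL/L DN3 cells, against 7.99 in WT DN3 cells, 6.36 in IkL/L DN4 cells, against 8.83 in WT DN4 cells, and 10.33 in IkL/L DP cells, against 10.86 in WT DP cells. Trib2 thus shared with Tubb2b the gap at DN3 and DN4 and its narrowing at DP. Its IkL/L DN3 arrays (4.64 and 4.95) lay below the array medians, so the size of its DN3 gap is uncertain.

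For Tubb2a the closest were Tmem120b (r = 0.981), Il10rb (0.980), a subunit of the interleukin-10 receptor, and Gsn (0.976), the actin-severing protein gelsolin. For Tubb3 they were Pdia5 (0.987), a protein disulfide isomerase, Oaf (0.979) and Gaa (0.976), the lysosomal alpha-glucosidase. Pdia5 averaged 6.33 in IkL/L DN4 cells, against 7.23 in WT DN4 cells, and 5.38 in IkL/L DP cells, against 5.16 in WT DP cells, close to the array medians. At DP Oaf averaged 5.62 in IkL/L, against 5.68 in WT cells, and Gaa averaged 7.60, against 7.67, so the order of genotypes turned for Pdia5 and not for these. For Tubb5 they were Kntc1 (0.963), a kinetochore protein, Kif23 (0.956), a kinesin of cytokinesis, and Pimreg (0.954), a mitotic regulator. These correlations describe arrays that share 6 groups and are ranked from many genes.

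**Figure D4:**
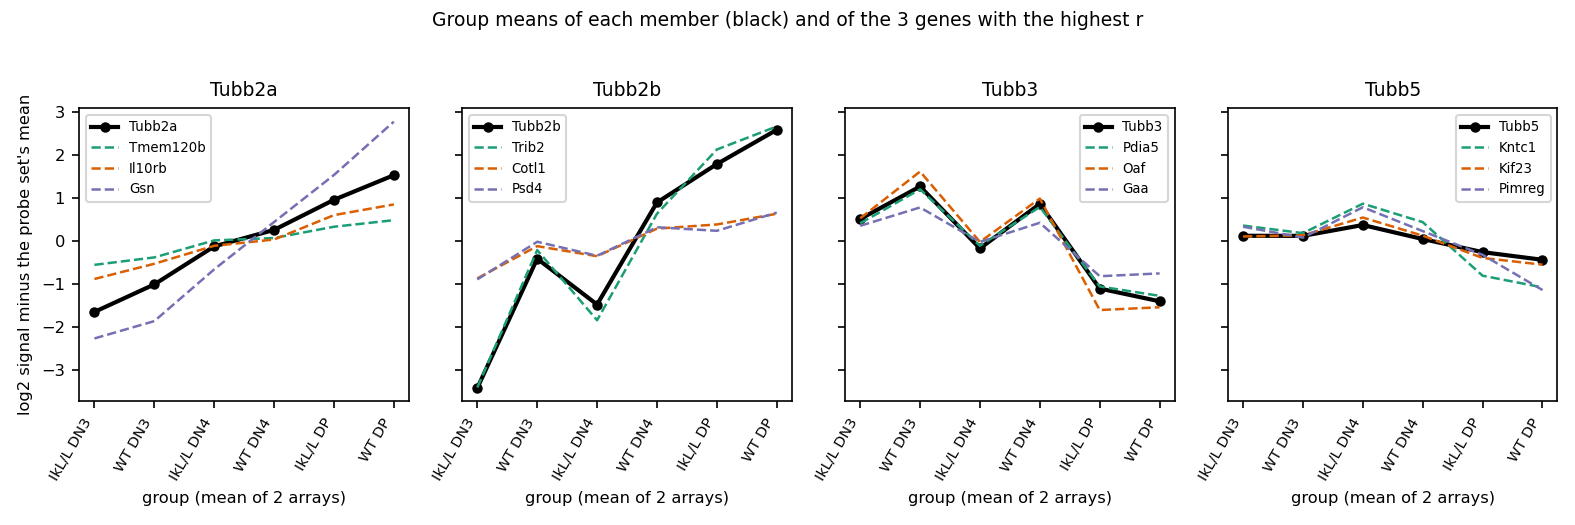
Group means of each member (black) and of the 3 genes with the highest Pearson r over 12 arrays (dashed), each as log2 signal minus the mean of its own 6 group means, with IkL/L left of WT at each stage. The Trib2 line runs close to that of Tubb2b without overlying it, and the genes beside Tubb5 peak in IkL/L DN4 cells.

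The other tubulins differed in course. Of 15 listed, 8 were tested. Tuba1a, an alpha-tubulin, rose at both steps in both genotypes, by 0.59 ± 0.13 and 1.09 ± 0.13 in IkL/L cells (limma, adjusted p = 0.0393 and 9.82e-05) and by 0.50 ± 0.13 and 1.23 ± 0.13 in WT cells (adjusted p = 0.0463 and 2.73e-05). Its calls from DN3 to DN4 were lost in 11 of 13 fits with arrays left out in each genotype (adjusted p up to 0.401 in IkL/L and 0.266 in WT cells). Its probe set, 1418884_x_at, is of a type that can bind related transcripts. Tube1, the centriolar epsilon-tubulin, rose from DN3 to DN4 by 0.74 ± 0.11 in IkL/L cells (limma, adjusted p = 0.00662). That call was lost with the arrays of the contrast alone (adjusted p = 0.168) and in 2 of 13 fits with arrays left out. The other tested Tube1 probe sets gave 0.31 and 1.05 there and did not pass (adjusted p = 0.347 and 0.217). From DN4 to DP Tube1 rose by 2.00 ± 0.11 in IkL/L (adjusted p = 1.63e-06) and 2.65 ± 0.11 in WT cells (adjusted p = 3.57e-07). Tubb4b, another beta-tubulin of dividing and ciliated cells, fell by 1.53 ± 0.24 at that step in IkL/L (adjusted p = 0.000582) and fell by 1.81 ± 0.24 in WT cells (adjusted p = 0.000131). Its other tested probe sets gave -0.51 and -0.33 in IkL/L (adjusted p = 0.0255 and 0.218). In WT cells they gave -0.63 and -1.27 (adjusted p = 0.00720 and 0.000419).

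Tuba8, a divergent alpha-tubulin, gave 6.05 and 5.84 in IkL/L DN4 cells, against 7.05 and 7.03 in WT DN4 cells. The difference was -1.09 ± 0.14 (limma, adjusted p = 0.00249), and its second tested probe set, 1446771_at, gave -1.54 (adjusted p = 0.00247). From DN4 to DP it fell by 2.37 ± 0.14 in WT cells (adjusted p = 9.26e-07), to 4.66 on both arrays, below the array medians.

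Over 4 lists of microtubule genes (other tubulins, tubulin folding and autoregulation, tubulin modifying enzymes, microtubule dynamics and binding), 75 of 95 genes were tested. From DN3 to DN4, 2 of them passed in IkL/L cells, both higher (Tuba1a and Tube1), and 5 in WT cells, 2 higher and 3 lower. From DN4 to DP, 11 rose and 29 fell in IkL/L cells, and 14 rose and 29 fell in WT cells, beside 18.5% and 24.8% of all tested genes in IkL/L and 23.2% and 31.9% in WT cells. The medians of the lists at that step were -0.23 in IkL/L and -0.24 in WT cells, beside -0.04 and -0.15 for all tested genes. Of the 22 folding genes, 13 fell and 3 rose in IkL/L, and 13 fell and 2 rose in WT cells, to be read against the same shares. Among them Cct8, a subunit of the chaperonin that folds tubulin, fell by 1.23 in IkL/L (limma, adjusted p = 0.000609) and 1.46 in WT cells (adjusted p = 0.000132). Pfdn4, a prefoldin subunit, fell by 1.30 in IkL/L (adjusted p = 8.28e-05) and fell by 1.41 in WT cells (adjusted p = 3.01e-05). Tbcel moved furthest of the list and rose, by 1.37 in IkL/L (adjusted p = 0.000202) and 2.23 in WT cells (adjusted p = 5.39e-06).

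Enzymes that modify tubulin moved in both directions from DN4 to DP. Hdac6, which removes acetyl groups from alpha-tubulin, fell by 1.58 ± 0.16 in IkL/L (limma, adjusted p = 3.14e-05) and 1.74 ± 0.16 in WT cells (adjusted p = 9.33e-06). Ttll3, a tubulin glycylase, rose by 1.63 ± 0.38 in IkL/L (adjusted p = 0.00585) and 2.82 ± 0.38 in WT cells (adjusted p = 0.000137). Its DN4 signals were 5.20 and 5.60 in IkL/L, against 5.07 and 4.60 in WT, near or below the array medians, so the size of these steps is uncertain. Its second tested probe set, 1436604_at, rose by 0.54 in IkL/L (adjusted p = 0.0106) and by 0.52 in WT cells (adjusted p = 0.00927). The IkL/L call of the first was lost without IkL/L DP replicate 1 (adjusted p = 0.0558). Map4, the main microtubule-associated protein outside neurons, rose by 1.07 ± 0.20 in IkL/L (adjusted p = 0.00168) and by 1.95 ± 0.20 in WT cells (adjusted p = 2.44e-05). Of its other tested probe sets, 1416091_at and 1443702_at rose by 1.66 and 0.85 in IkL/L (adjusted p = 5.08e-05 and 0.0336). The remaining one, 1439467_at, gave 0.55 in IkL/L and did not pass (adjusted p = 0.0913). In WT cells all of them passed. Tacc3, a spindle protein, fell by 1.47 in IkL/L (adjusted p = 0.000269) and fell by 1.84 in WT cells (adjusted p = 3.92e-05). Its other tested probe sets gave -1.25 and -1.12 in IkL/L (adjusted p = 0.0147 and 0.0104). They did not pass in WT cells (-0.43 and -0.72, adjusted p = 0.321 and 0.0562). Kif2c, a microtubule-depolymerizing kinesin, fell by 1.37 in IkL/L (adjusted p = 9.78e-05) and fell by 1.73 in WT cells (adjusted p = 1.28e-05). Of its 3 other tested probe sets, 1432392_at did not pass in either genotype (adjusted p = 0.0795 in IkL/L and 0.606 in WT cells).

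Between genotypes few of the other microtubule genes passed the test. In DN3 cells 1 of 75 was called, lower in IkL/L, where 1.68% of all tested genes were higher and 1.38% lower. In DN4 cells 3 were higher and 2 lower, beside 3.15% and 1.63% of all tested genes. In DP cells 1 was higher and 2 lower, beside 3.43% and 1.07%. The median difference of the 75 genes was -0.03, 0.15 and 0.10 at the 3 stages, beside -0.04, -0.00 and 0.03 for all tested genes. After a second quantile normalization the median of all genes in DN4 cells shifted to -0.11, and the calls there became 281 higher and 431 lower, against 367 and 190 as deposited.

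Dclk2, a kinase related to doublecortin that binds microtubules, was the gene called at all 3 stages. It averaged 6.87 ± 0.036 in IkL/L DN3 cells, against 7.97 ± 0.035 in WT DN3 cells (SD, n = 2 each), and the differences were -1.10, -0.79 and -0.92 ± 0.16 (limma, adjusted p = 0.00467, 0.0251 and 0.0103 at DN3, DN4 and DP). Its second tested probe set, 1458488_at, differed by 0.16, -0.12 and -0.37 and did not pass. Leaving out WT DN3 replicate 1 ended the DN3 call (adjusted p = 0.0627), as did the mean of its probe sets (-0.28, adjusted p = 0.213) and the arrays of the contrast alone (adjusted p = 0.0653). The other calls were lost in 4 of 13 fits each when an array of the stage or the 3 IkL/L replicate 2 arrays were left out (adjusted p up to 0.195 at DN4 and 0.0900 at DP).

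In DN4 cells Vash2, which cuts the terminal tyrosine from alpha-tubulin, gave 5.75 and 5.78 in IkL/L, against 3.97 and 4.13 in WT, where it lay below the array medians. The difference was 1.72 ± 0.24 (limma, adjusted p = 0.00388). Vash2 reached the array median only on IkL/L arrays, both DN4 arrays among them, and passed the filter through these. The size of the difference is therefore uncertain. Ttll4, a glutamylase (0.61, adjusted p = 0.0415), and Tube1 (0.58, adjusted p = 0.0221) were also higher, and lost the call in 9 and 5 of 13 fits with arrays left out (adjusted p up to 0.284 and 0.176). The second tested Ttll4 probe set, 1436249_at, gave 0.14 (adjusted p = 0.654). The Ttll4 call was also lost with the mean of its probe sets (0.26, adjusted p = 0.119), the replicate block (0.0623), centred arrays (0.0543) and a second quantile normalization (0.0702). In DP cells Map4 gave 9.54 and 9.47 in IkL/L, against 10.35 and 11.00 in WT, a difference of -1.17 ± 0.20 (adjusted p = 0.00888). It lost the call without either IkL/L DP array (adjusted p = 0.0619 and 0.0717) or without the 3 IkL/L replicate 2 arrays (0.0762), and with the arrays of the contrast alone (0.0630). Of its other 3 tested probe sets, 1416091_at passed (-0.82, adjusted p = 0.0305), and the rest gave -0.10 and -0.41 (adjusted p = 0.907 and 0.583). Kif2a, a depolymerizing kinesin, was higher by 0.60 ± 0.12 (adjusted p = 0.0221), a call lost in 4 of 13 fits with arrays left out (adjusted p up to 0.201), with the arrays of the contrast alone (0.175) and with the mean of its probe sets (0.32, adjusted p = 0.157). Its 3 other tested probe sets gave 0.31, 0.57 and 0.31 and did not pass (adjusted p = 0.243, 0.0683 and 0.733).

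**Figure D5:**
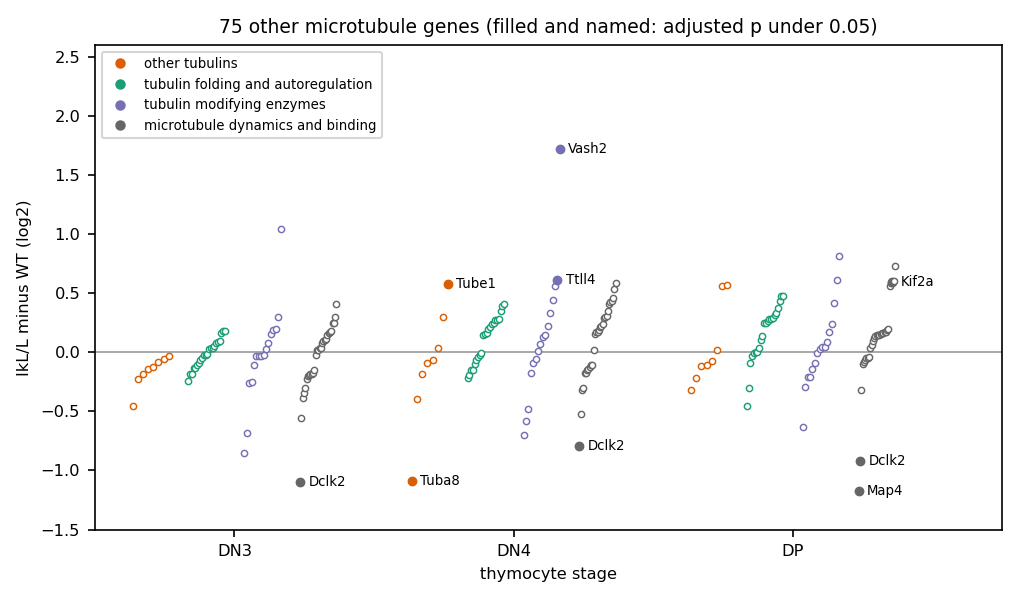
Genotype difference (IkL/L minus WT, log2) of the 75 other tested microtubule genes at each stage, 1 point a gene in 4 lists, with filled and named points for adjusted p under 0.05. The named genes are Dclk2 at DN3, 5 genes at DN4 and 3 at DP, all between -1.17 and 1.72.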

How the data were processed

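RNA of 12 samples of sorted thymocytes was labelled in a protocol with a double round of amplification, per the labels, and measured on Affymetrix mouse arrays. The authors made the deposited log2 signals with RMA, which corrects background, quantile normalizes and summarises each probe set, per the submitters' processing notes; its version is not given in the sources used here. Every value column matched a sample, and 0 columns had none. Arrays have no read depth.

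The log2 values were tested as deposited with limma 3.58.1 in R 4.3.3. The model had 1 mean a group over all 12 arrays, with 6 residual and 4.21 prior degrees of freedom. It was fitted on the 20865 single-symbol probe sets that reached the median of their array on at least 2 arrays, of 34958 that carried 1 symbol (932 carried several, 9209 none). P values were adjusted by the Benjamini-Hochberg method over all of these and called under 0.05. Each gene was represented by its brightest probe set. Other probe sets of listed microtubule genes are given only where they passed the filter. SE is the moderated standard error, and arrays were grouped as IkL/L or WT at DN3, DN4 or DP. The fit was tested on simulated data.

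Names in the text were drawn from every member with all its probe sets, Ikzf1, up to 4 called genes of each of 4 microtubule lists per contrast, and for each tested member the 3 genes with the highest r. Aurkb, Plk1, Birc5 and the cell type markers were named as members of their lists after their values were seen. Members and lists were chosen with earlier results of these data known. Promoter windows come from RefSeq tables of GRCm38.p6, in which Tubb2a, Tubb3 and Tubb5 were matched. Listed genes with no single-symbol probe set, among them Tuba1b, Tuba1c, Tuba3a, Tubal3, Agbl2, Vash1 and Ccnb1, were not analysed here. The alternatives were other filters, priors, scalings, probe set summaries, an actin 3′ minus 5′ covariate, the replicate block over all arrays or, chosen after seeing the data, within each genotype, the arrays of a contrast alone, a minimum difference and leaving out arrays.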

Additional observations from a re-analysis of the deposited data

Results flagged for a closer look

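Tubb3 (1415978_at) differed between genotypes in opposite directions at different stages. Both IkL/L arrays lay below both WT arrays in DN3 and DN4 cells, with log2 differences of -0.76 and -1.04. They lay above both WT arrays in DP cells, with a difference of 0.30. The 95% interval of the DP difference was -0.11 to 0.70, which includes 0, and the DP signals lay at or just above the array medians. This change of direction was not tested, because the genotype differences were known when the gene was chosen. With only replicate 1 of the IkL/L arrays the differences were -0.65, -0.96 and 0.47.

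From DN4 to DP Tuba8 (1419518_at) changed by -0.72 in IkL/L and -2.37 in WT cells, where the DP signal lay below the array medians. Its second tested probe set, 1446771_at, gave -0.10 in IkL/L (limma, adjusted p = 0.719) and -1.90 in WT cells (adjusted p = 2.46e-05). The step of 1419518_at differed between genotypes by 1.65 ± 0.20 (IkL/L step minus WT step, limma, adjusted p = 0.0106). The call was lost in 5 of 13 fits with arrays left out, namely without either WT DN4 array (adjusted p = 0.0608 and 0.0756), without IkL/L DN4 replicate 2 (0.0670), without IkL/L DP replicate 2 (0.0656) and without the 3 IkL/L replicate 2 arrays (0.107).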

How the results depend on the processing

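Precision is limited by 2 arrays a group and, for Tubb3 in DP cells, Tubb2b in IkL/L DN3 cells and the second Tubb2a probe set, by signals near the array medians. The counts of called beta-tubulin genes (2 and 4 in each genotype for the successive steps) stayed within 1.5 times under all alternatives, except that 2 passed from DN4 to DP in IkL/L cells when a log2 difference of at least 1 was required. With arrays left out they were 2 for each DN3 to DN4 step and 3 to 4 for each DN4 to DP step. The fall of Tubb5 from DN4 to DP was no longer called with the mean of its probe sets (-0.40, adjusted p = 0.0832 in IkL/L, and -0.31, adjusted p = 0.140 in WT cells) or, in WT cells, with the actin covariate (-0.34, adjusted p = 0.178). The fall of Tubb3 from DN3 to DN4 in IkL/L cells was called with that covariate (-0.73, adjusted p = 0.0468) and with the mean of probe sets (adjusted p = 0.0451). The WT step of the second Tubb2a probe set was not called with the replicate block, the actin covariate or the arrays of the contrast alone (adjusted p = 0.0533, 0.176 and 0.0544).

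The counts of other microtubule genes called between genotypes were less stable. In DN3 cells the 1 call became 2 with a trend and robust prior, with the actin covariate or with 1 probe set a gene before the fit, 0 with the arrays of the contrast alone, and 0 to 3 with arrays left out. In DN4 cells the 5 calls became 3 with a filter at the 75th percentile, 2 with a log2 difference of at least 1, and 2 to 7 with arrays left out. In DP cells the 3 calls became 5 with a second quantile normalization, 7 with the actin covariate or 1 probe set a gene, 1 with the arrays of the contrast alone or a log2 difference of at least 1, and 0 to 6 with arrays left out. Without the 3 IkL/L replicate 2 arrays the counts were 3, 2 and 1 in DN3, DN4 and DP cells. The cause of these shifts was not tested.

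The labels tie no number to a shared pool or day, and in WT cells 2 numbers are too few to settle pairing from the data. In IkL/L cells Eif2s3y was 2.82 to 3.12 on the 3 replicate 2 arrays, against 8.81, 8.39 and 9.01 on replicate 1 at DN3, DN4 and DP. Same-numbered IkL/L arrays thus shared this pattern across stages. In WT cells the X-linked gene Xist gave 12.09, 11.53 and 12.41 on replicate 1 at DN3, DN4 and DP. On WT replicate 2 it gave 11.34, 10.33 and 11.40. Eif2s3y ran the other way, at 8.27, 7.78 and 9.27 on WT replicate 1, against 8.73, 8.55 and 9.58 on replicate 2. Kdm5d was also lower on WT replicate 1 at each stage. Whether each number was 1 pool was not tested, and the main fit used no pairing. Deviations of same-numbered arrays correlated between 0.15 and 0.32 among the WT groups, 0.01 and 0.49 among the IkL/L groups, and -0.34 and 0.06 across genotypes. With the replicate block the counts of beta-tubulin genes were 2, 4, 2 and 4 for the steps, and those of other microtubule genes 1, 4 and 3, and the all-gene counts fell from 357, 557 and 524 to 301, 450 and 481. A replicate block within each genotype, chosen after seeing the data, gave 2 and 4 beta-tubulin genes for the WT steps and 3 and 4 for the IkL/L steps, the added call being the fall of Tubb3 from DN3 to DN4. It gave 2, 5 and 7 other microtubule genes at DN3, DN4 and DP, and all-gene counts of 432, 742 and 626. Of 2138 recomputed values of single probe sets, 2019 kept their side of the threshold or moved by less than 1 SD, 110 lost the call, 4 gained it and 5 untested ones moved further, among them Tubb2a (-0.46 at DN3 and -0.38 at DP with the mean of its probe sets). None that passed turned its direction.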
